A study of Mus musculus with 6 samples.

Results

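The EZH2 peaks of mouse chromosome 17 are described here, 300 of the 3449 EZH2 peaks called in mouse embryonic fibroblasts rescued with wild-type EED, together with the 48 H3K27me3 peaks of the same chromosome in fibroblasts rescued with EED R302S (1135 lay on the other autosomes). The peaks were selected on their chromosome, after earlier results of these data had shown that chromosome 17 had many EZH2 peaks and a low share of them with H3K27me3, so that its peak density and this share are given as descriptions with no test. Fibroblasts were grown from cells with floxed EED, which was deleted by a transient Cre lentivirus, and 1 knockout clone was taken. All libraries therefore share the EED deletion and this clonal origin, and differ in the EED form put back by lentivirus and in the antibody. Of the 6 groups of 1 library each (3 EED forms, 2 antibodies), peak lists of 2 were used, EZH2 with EED wt and H3K27me3 with EED R302S. The antibody and the EED form change together between them and cannot be told apart.

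Polycomb repressive complex 2 places methyl groups on lysine 27 of histone H3. EZH2 is its catalytic subunit, and EED holds the trimethylated product, which stimulates the enzyme and lets the mark spread from the sites where the complex first binds. The study used EED R302S and EED Y365A as forms in which this stimulation is impaired, and an H3K27me3 peak in R302S cells marks a place where the modification was still called with such a form. In differentiated cells the complex is typically found at CpG-rich promoters of silent developmental regulators. Mouse chromosome 17 is known for the t complex and the H2 major histocompatibility complex in its proximal part. No annotation or sequence of mm9, the build of the peaks, was used here, so no peak was assigned to a gene.

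Chromosome 17 carried its EZH2 peaks close together and on wide sites. It had 3.52 EZH2 peaks per Mb between the first and last peak of either list, the highest of 19 autosomes, where the others ranged from 0.603 (chromosome 16) to 3.12 (chromosome 19). The EZH2 peaks covered 1.52% of that span, against 0.186% to 1.31% on the others. The H3K27me3 list did not single the chromosome out, since its 0.564 peaks per Mb ranked 5th, within a range of 0.229 to 0.952 on the others. There were thus 6.25 EZH2 peaks for each H3K27me3 peak on chromosome 17, and 1.74 to 4.73 on the other autosomes. Neither list gives a height or score per peak and read depth is unknown, so a weak site cannot be told from an empty one, and no replicate stands behind any value. With the narrower 50% of the list left out the density was 2.27 per Mb, again the highest, before 1.84 on chromosome 19.

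Along the chromosome the EZH2 peaks were very uneven. The chromosome was divided into bins of 5 Mb counted from its start, each peak placed by its midpoint, which gave 18 bins up to the last peak. The 483 bins of the other 18 autosomes held a median of 3 EZH2 peaks (quartiles 1 and 8), and bins with more than their 95th percentile of 24 peaks are called dense below. On chromosome 17 there were 4 dense bins, 22.2% of its bins, beside 4.76% on the other autosomes, where the threshold was set. Bin 6 (chr17:25000001-30000000) held 74 peaks, as many as the fullest bin of any other autosome. Bin 2 (chr17:5000001-10000000) held 45, bin 7 (chr17:30000001-35000000) held 34 and bin 3 (chr17:10000001-15000000) held 26. These 4 bins contained 179 of the 300 peaks, or 59.7%. Bin 3 was just past the threshold, and bins 5 and 8, with 23 peaks each, fell just short of it. For other settings the 95th percentile was taken anew. Cut into bins of 2 Mb the chromosome had 9 dense bins of 45 (threshold 11.6 peaks). Among them were chr17:46000001-48000000 (14 peaks) and chr17:56000001-58000000 (21 peaks), outside the dense bins above. Bin 7 was reached only by the 2 Mb bin chr17:34000001-36000000. With the wider 50% of each list 8 of its 5 Mb bins were dense (threshold 13 peaks).

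**Figure D1:**
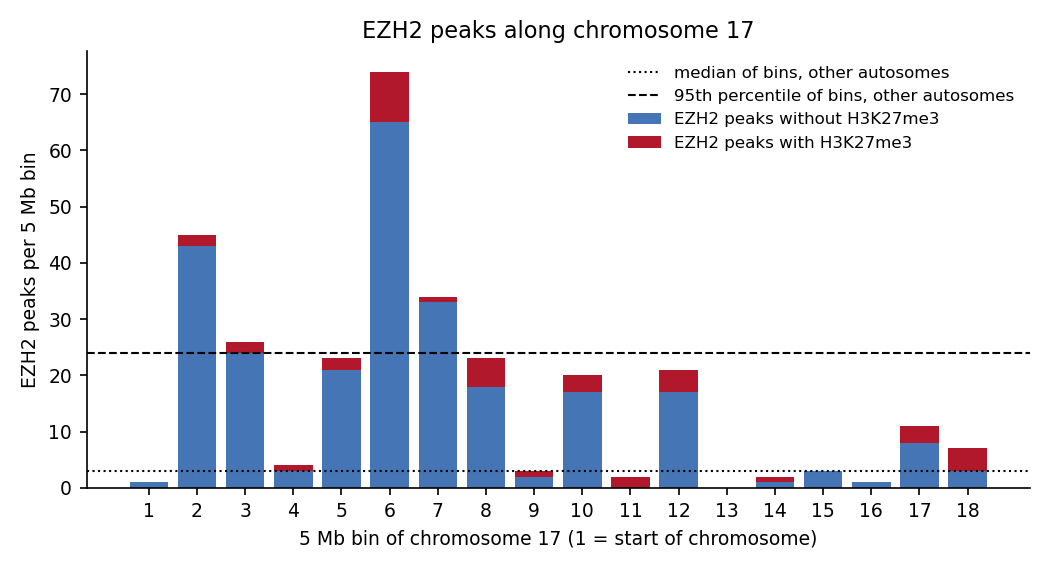
EZH2 peaks in each 5 Mb bin of chromosome 17, numbered from the chromosome's start, stacked by whether an H3K27me3 peak of R302S cells overlapped them. The dotted line is the median (3) and the dashed line the 95th percentile (24) of bins on the other 18 autosomes. Bins 2, 3, 6 and 7 stand above the dashed line, and few of their peaks carried H3K27me3.

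The remaining bins alternated between moderate and nearly empty ones. Bins 10 and 12 held 20 and 21 EZH2 peaks, while bin 4, between the first pair of dense bins and the second, held 4. Bins 1, 9, 11, 14, 15 and 16 had 1 to 3 peaks each and bin 13 had none. The longest stretches free of EZH2 peaks ran from 57423000 to 66798001 (9.38 Mb), from 15530200 to 23668001 (8.14 Mb) and from 37044800 to 43152401 (6.11 Mb). The first 2 of these also held no H3K27me3 peak lying wholly inside them, and the third held 1. In steps of 1 Mb, 10 of the 89 steps had 10 or more EZH2 peaks and together held 184 peaks (61.3%), while 44 steps had none. The fullest step was chr17:25000001-26000000 with 28 peaks, followed by chr17:27000001-28000000 with 24. Bins 1 to 8 held 230 of the 300 peaks (76.7%, 5.75 per Mb) and bins 9 to 18 held 70 (1.40 per Mb), a division drawn after the counts had been seen. The distal value was still above the median of the other autosomes, 1.03 per Mb, and without the fullest bin of every autosome chromosome 17 ranked first at 2.82 per Mb.

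Neighbouring EZH2 peaks on chromosome 17 were close. The median distance to the nearest EZH2 peak was 9.20 kb (quartiles 3.60 and 35.5 kb), against 42.2 kb (9.20 and 243 kb) on the other autosomes. Of the 300 peaks, 204 (68.0%, 95% Wilson interval 62.5% to 73.0%) had a neighbour within 20 kb, the highest share of any autosome. The others ran from 15.6% (chromosome 18) to 57.7% (chromosome 15). In dense bins the share was 76.0% on chromosome 17 and 64.7% on the other autosomes, and outside them 56.2% and 27.4%. A higher peak density brings neighbours closer by itself. Whether the peaks were closer than density alone would give was not tested. Chains of 5 or more peaks, each within 20 kb of the next, numbered 10 and held 90 peaks (30.0%), compared with 8.55% of EZH2 peaks on the other autosomes. The longest chain, 13 peaks in 148 kb from 25566401 to 25714600, was longer than the longest elsewhere, which had 12. Its H3K27me3 lay at the ends: the first peak (12.4 kb) was covered to 30.6% and the last (11.4 kb) to 12.3%, and the 11 peaks between them, up to 14.2 kb wide, had none. In the next longest, 12 peaks in 168 kb from 36194201 to 36362600, 3 peaks had H3K27me3. A chain of 11 peaks in 88.2 kb from 7263801 to 7352000 had none, and its nearest peaks of that mark lay 786.2 kb and farther away.

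**Figure D2:**
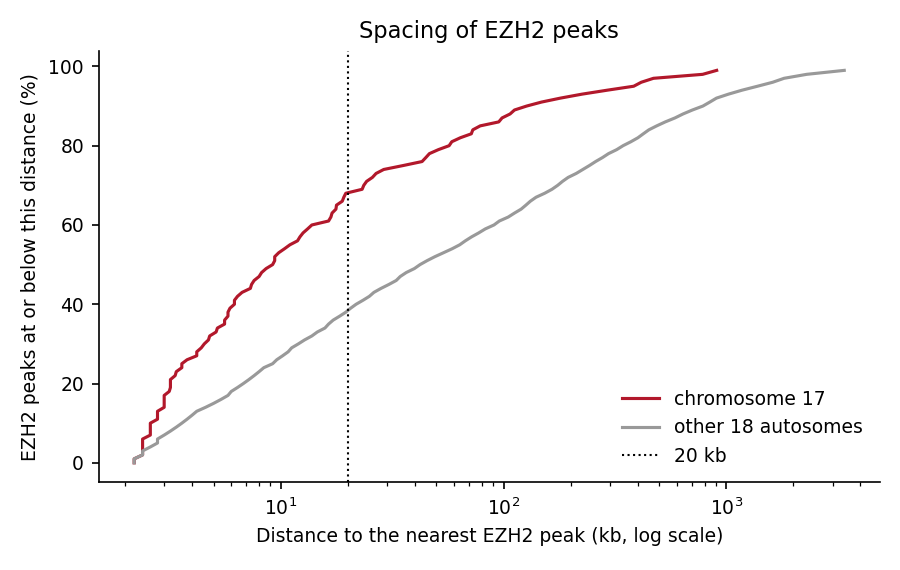
Percentage of EZH2 peaks (y axis) whose nearest EZH2 peak lies at or below the distance on the x axis (kb, log scale), for the 300 peaks of chromosome 17 and the 3099 peaks of the other 18 autosomes. The chromosome 17 curve lies to the left, with 68.0% of its peaks within 20 kb of another (dotted line) against 38.4% elsewhere. In dense bins alone these shares were 76.0% and 64.7%.

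The fullest windows of 100 kb, taken at fixed positions, were also heavily covered by EZH2. The window chr17:25600001-25700000 held 10 peaks by their midpoints, and EZH2 covered 42.0% of it. The window chr17:24900001-25000000 held 8 with 31.4% covered, and chr17:8200001-8300000 held 7 with 46.6% covered. None of the 25 peaks in the 3 described windows overlapped H3K27me3. The share was 13.3% over all EZH2 peaks of the chromosome and 9.80% over those with a neighbour within 20 kb. Whether the absence of the mark in the described windows goes beyond such shares was not tested.

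EZH2 peaks of chromosome 17 were wider than those of the other autosomes. Widths ran from 800 to 28200 bp with a median of 3000 bp (quartiles 1800 and 5250 bp), the largest median of any autosome, where the others ran from 2100 to 2800 bp and pooled to 2400 bp (1400 and 4100 bp). Peaks of 4400 bp or more made up 32.3% (97 peaks) on chromosome 17 and 23.1% elsewhere, and peaks of 10 kb or more 8.67% (26 peaks) and 3.58%. Width did not simply follow peak number along the chromosome. Dense bin 2 had a median of 3800 bp and bin 6 of 3400 bp, whereas dense bin 7 had 2000 bp, and bin 12, with 21 peaks, had 4000 bp. The dense bins of the other autosomes had medians of 1800 to 3500 bp, so only bin 2 among those of chromosome 17 exceeded all of them.

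H3K27me3 was called at few of these EZH2 sites. On chromosome 17, 40 of 300 EZH2 peaks shared at least 1 bp with an H3K27me3 peak (13.3%, interval 9.95% to 17.6%), the lowest share of the autosomes, beside a background of 29.1% (901 of 3099 peaks, 27.5% to 30.7%) on the other 18. The intervals cover counting error within 1 library, and neighbouring peaks are not independent. Where 50% of both peaks had to be common to count, the shares were 7.67% and 20.7%. By length the shortfall was of the same kind: 13.6% of the EZH2 length on chromosome 17 lay inside H3K27me3 and 35.9% on the others. The 260 peaks without overlap lay a median of 207 kb (quartiles 66.9 and 625 kb) from the nearest H3K27me3 peak, against 252 kb (62.0 and 804 kb) for such peaks on the other autosomes. Within 5 kb of one lay 2.31% of them (6 peaks) and 2.87% elsewhere.

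The bins differed in this share. In the dense bins it was 4.44% in bin 2 (2 of 45 peaks, interval 1.23% to 14.8%), 7.69% in bin 3 (2 of 26, 2.14% to 24.1%), 12.2% in bin 6 (9 of 74, 6.53% to 21.5%) and 2.94% in bin 7 (1 of 34, 0.521% to 14.9%). Pooled, 14 of 179 peaks in dense bins had H3K27me3 (7.82%, 4.72% to 12.7%), against 26 of 121 in the other bins of the chromosome (21.5%, 15.1% to 29.6%). The other autosomes had the same order at a higher level, with 19.2% (16.8% to 21.9%) of 910 peaks in their 23 dense bins and 33.2% (31.2% to 35.2%) of 2189 peaks elsewhere. Those 23 bins ranged singly from 9.46% to 45.2%, so bins 2, 3 and 7 of chromosome 17 lay below every one of them, although the intervals of single bins are wide. Just under the threshold, bin 30 of chromosome 4 had 1 of 24 peaks with the mark (4.17%), below bins 2 and 3. Bin 6 was not apart in this way. The equally full bin 24 of chromosome 11 (chr11:115000001-120000000) had 7 of its 74 peaks with H3K27me3 (9.46%, 4.66% to 18.3%), and bin 16 of chromosome 15 had 12 of 73 (16.4%, 9.66% to 26.6%).

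**Figure D3:**
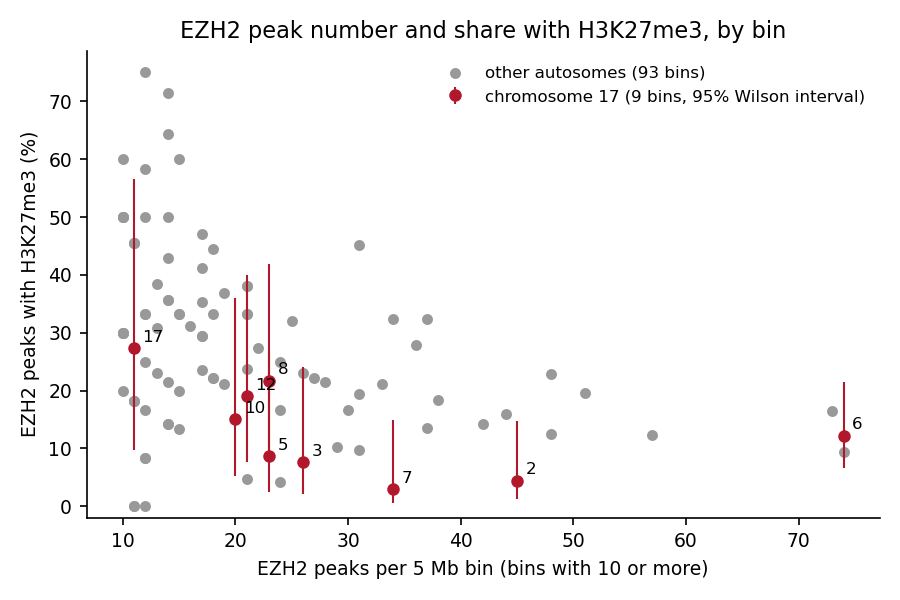
Share of EZH2 peaks with H3K27me3 (y axis, %) against the number of EZH2 peaks (x axis) for each 5 Mb bin with 10 or more EZH2 peaks. Red points are the 9 bins of chromosome 17, labelled by bin number with 95% Wilson intervals, and grey points are 93 bins of the other autosomes; bins 2, 3 and 7 (4.44%, 7.69% and 2.94%) lie below all grey points with more than 24 peaks.

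Pooled over bins 9 to 18, EZH2 peaks were sparser than in bins 1 to 8, and a larger share of them carried the mark. In bins 9 to 18, 18 of 70 EZH2 peaks had H3K27me3 (25.7%, 16.9% to 37.0%), and in bins 1 to 8, 22 of 230 did (9.57%, 6.40% to 14.1%). In bin 18, the last, 4 of 7 peaks had it, and in bin 17 3 of 11 did. H3K27me3 peaks themselves were spread more evenly than EZH2, with 27 in bins 1 to 8 (0.675 per Mb) and 21 in bins 9 to 18 (0.420 per Mb), where EZH2 had 5.75 and 1.40 peaks per Mb. None of the 9 bins of chromosome 17 with 10 or more EZH2 peaks lacked H3K27me3 altogether, and 3 of 93 such bins did on the other autosomes. These numbers are too small to set chromosome 17 apart.

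EZH2 peaks that overlapped no H3K27me3 followed one another in long runs. The longest on chromosome 17 had 41 consecutive peaks over 2.83 Mb, chr17:5699401-8534400, with a median width of 3800 bp, a widest peak of 16400 bp and 19 peaks of 4400 bp or more. The next had 35 peaks over 5.38 Mb, chr17:30034601-35413800, and was made of narrower peaks (median 1800 bp). The third had 24 peaks over 1.54 Mb, chr17:12187201-13725000 (median 2400 bp). The first and second of these each held 1 H3K27me3 peak between EZH2 peaks, and the third held none. Runs of 10 or more took in 160 of the 300 peaks (53.3%), and on the other autosomes such runs took in 557 of the 3099. A lower share of peaks with the mark lengthens such runs by itself, and the shares were 13.3% and 29.1%. Whether the runs were longer than these shares alone would give was not tested. The contrast is therefore not a result separate from the shares. The longest run of any autosome was on chromosome 11, 51 peaks over 2.34 Mb from 116514201 to 118857800, inside its equally full bin.

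Wide EZH2 peaks carried H3K27me3 more often than narrow ones on chromosome 17, as elsewhere, and the observed share was lower than on the other autosomes in each of 4 width classes, which was not tested. The median width of the 40 peaks with H3K27me3 was 6100 bp (quartiles 3350 and 11650 bp) and of the 260 without it 2600 bp (1600 and 4600 bp), a ratio of 2.35. The other autosomes had 4200 and 2000 bp, a ratio of 2.10. By width class, the share on chromosome 17 was 1.69% of 59 peaks of 800 to 1400 bp (1 peak, 0.300% to 9.0%), 4.17% of 72 peaks of 1600 to 2400 bp (1.43% to 11.5%), 18.1% of 72 peaks of 2600 to 4200 bp (10.9% to 28.5%) and 23.7% (16.4% to 33.1%) of 97 peaks of 4400 bp or more. On the other autosomes it was 6.10% (4.63% to 7.99%), 15.5% (13.1% to 18.1%), 35.5% (32.3% to 38.9%) and 62.2% (58.6% to 65.7%). As a ratio to the other autosomes, the share on chromosome 17 was 0.270, 0.508 and 0.381 in the upper 3 classes, and the narrowest class rests on 1 peak. In percentage points the distance was largest in the widest class, because the share gained 5.66 points over the class before it on chromosome 17 and 26.7 on the others. Among peaks of 10 kb or more, 13 of 26 had H3K27me3 on chromosome 17 (50%, 32.1% to 67.9%) and 81 of 111 did elsewhere (73.0%, 64.0% to 80.4%). These 13 were part of the 23 peaks with the mark in the widest class on chromosome 17, and the 81 part of 446 elsewhere.

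**Figure D4:**
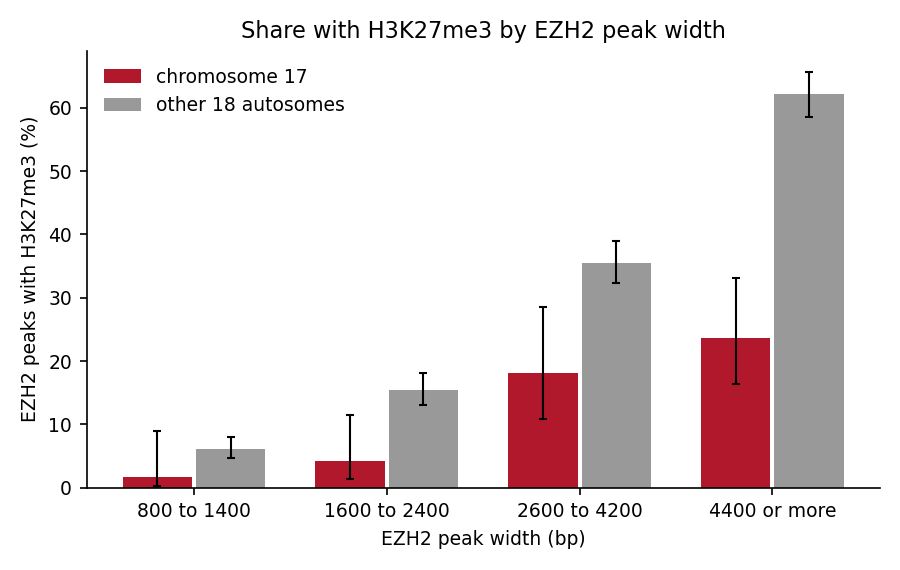
Share of EZH2 peaks overlapping H3K27me3 (bars, %, with 95% Wilson intervals) in 4 classes of EZH2 peak width (bp), on chromosome 17 (red) and the other 18 autosomes (grey). In percentage points the distance between the colours is largest in the class of 4400 bp or more, 23.7% against 62.2%.

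Peak width and crowding were then crossed. For peaks of 4400 bp or more, the share with H3K27me3 was 17.2% (10 of 58, 9.64% to 28.9%) in dense bins of chromosome 17 and 46.2% (40.3% to 52.2%) in dense bins of the other autosomes. Outside dense bins it was 33.3% (13 of 39, 20.6% to 49.0%) and 71.6% (67.3% to 75.6%). For peaks under 4400 bp it was 3.31% (1.29% to 8.19%) and 8.07% (6.21% to 10.4%) in dense bins, and 15.9% (9.51% to 25.3%) and 23.2% (21.3% to 25.2%) outside them. Chromosome 17 had the lower observed share of each pair. Spacing gave the same order. Of EZH2 peaks with a neighbour within 20 kb, 9.80% (6.44% to 14.7%) had H3K27me3 on chromosome 17 and 22.7% (20.4% to 25.2%) elsewhere, and of those with none, 20.8% (13.9% to 30.0%) and 33.0% (31.0% to 35.2%).

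Where H3K27me3 was present, it filled less of the EZH2 peak in bins 6 to 8 than elsewhere on the chromosome. In bins 6 to 8 the 15 EZH2 peaks with the mark had a median of 24.8% of their length inside it (12.3% to 90.0%), and none was fully covered, whereas 5 of 7 in bins 2 to 5 were. Bins 1 to 8 together had 22 such peaks with a median of 45.3% (quartiles 17.8% and 84.7%), and 11 of them were covered to 50% or more. In bins 9 to 18 the median of 18 peaks was 92.4% (65.8% and 100%), with 15 covered to 50% or more. Peaks with the mark in bins 1 to 8 were also wider, at a median of 7800 bp against 3800 bp. Among peaks of 4400 bp or more with the mark, the medians covered were 40.5% of 15 peaks and 69.2% of 8. Among narrower ones they were 100% in both parts. On the other autosomes wide and narrower peaks differed less, with 81.8% and 92.8% in dense bins and 93.3% and 94.1% outside them. The part of width in the lower coverage of bins 1 to 8 was not tested. For peaks of 4400 bp or more in dense bins, the median was 40.3% on chromosome 17 (10 peaks) and 81.8% (123 peaks) on the other autosomes. A single peak of each list met in 39 cases on chromosome 17, and the H3K27me3 peak was the narrower in 24, the wider in 12 and equal in 3. The ratio of its width to that of the EZH2 peak had a median of 0.760 over these pairs (quartiles 0.277 and 1.10). The 841 such pairs on the other autosomes gave 1.00 (0.634 and 1.41). The lists were joined and cut at different limits (smallest peaks of 800 bp for EZH2 and 400 bp for H3K27me3), and the part of this in the width ratio of crowded peaks was not tested.

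**Figure D5:**
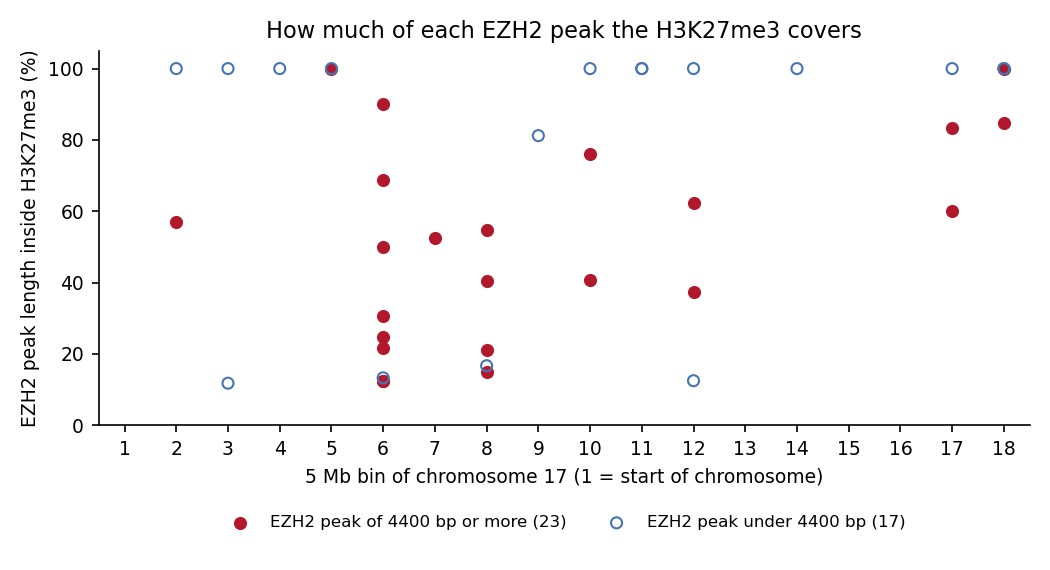
Percentage of each EZH2 peak's length lying inside H3K27me3 (y axis) for the 40 EZH2 peaks of chromosome 17 that overlap the mark, by 5 Mb bin (x axis). Filled points are EZH2 peaks of 4400 bp or more and open points narrower ones; in bins 6 to 8 no peak reaches 100%, and in bins 17 and 18 all lie at 60% or above.

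Single sites show both forms. The widest EZH2 peak with H3K27me3 was chr17:56275401-56298800 (23.4 kb, bin 12), 62.4% of it inside a peak of the mark. In bin 6 the wide peaks chr17:28269401-28289600 (20.2 kb), chr17:27639001-27658600 (19.6 kb) and chr17:26974001-26992000 (18 kb) were covered to 24.8%, 50% and 68.9%. In bin 8 a peak of 15.8 kb, chr17:36292001-36307800, was covered to 40.5%. The distal bin 18 held a peak of 14.8 kb, chr17:86010001-86024800, that lay wholly inside the widest H3K27me3 peak of the chromosome, chr17:86010001-86025400 (15.4 kb). Here EZH2 and H3K27me3 had nearly the same extent, while at the wide peaks named in bin 6 the mark took up part of broader EZH2 sites. Other sites went the other way. In bin 6 chr17:26084801-26090800 (6.0 kb) was covered to 90.0%, and in bin 10 chr17:46590201-46596600 (6.4 kb) was covered to 40.6%.

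Among EZH2 peaks more than 5 kb from any H3K27me3, 3 of the 5 widest belonged to bin 2 and 1 to bin 3. The widest, chr17:45661201-45689400 (28.2 kb, bin 10), was also the widest EZH2 peak of the chromosome, and the nearest H3K27me3 peak was 901.6 kb away. The others were chr17:13368401-13386200 (17.8 kb, 951.8 kb from the mark), chr17:7166401-7182800 (16.4 kb, 688.8 kb), chr17:8341001-8357400 (16.4 kb, 268.2 kb) and chr17:8230601-8246400 (15.8 kb, 379.2 kb). Among EZH2 peaks of 4400 bp or more, 23.7% had H3K27me3 on all of chromosome 17. On the other autosomes 46.2% had it in dense bins and 62.2% in all bins. In bins 2 and 3, grouped after their values were seen, 1 of 24 such peaks overlapped the mark (interval 0.739% to 20.2%). That peak, chr17:5485001-5496200 (11.2 kb), was covered to 57.1%, and another wide peak of bin 2, chr17:6489201-6497200 (8.0 kb), lay 11.6 kb from the mark.

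Most H3K27me3 peaks of chromosome 17 lay at EZH2 sites. Of its 48 H3K27me3 peaks, 41 overlapped an EZH2 peak (85.4%, 72.8% to 92.8%), beside a background of 78.5% (76.0% to 80.8%) on the other autosomes. Wholly inside EZH2 lay 26 of the 48 (54.2%, 40.3% to 67.4%), against 351 of 1135 (30.9%, 28.3% to 33.7%). Their median width was 3800 bp (quartiles 2200 and 6050 bp), against 3400 bp (1600 and 6600 bp). After the peak in bin 18, the widest were chr17:56275801-56290400 (14.6 kb), chr17:26978201-26990600 (12.4 kb), chr17:30020001-30031600 (11.6 kb) and chr17:46618601-46630000 (11.4 kb), which lay between 69.0% and 100% inside EZH2 peaks. A group of 4 H3K27me3 peaks (400 to 6400 bp) within 36170001 to 36317000 in bin 8 all lay wholly inside EZH2 peaks.

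The 7 H3K27me3 peaks without EZH2 were scattered. Those at chr17:3077201-3083000 (5.8 kb) and chr17:39979801-39986000 (6.2 kb) were the widest and the farthest from EZH2, at 1543.0 and 2935.0 kb, the former being the first H3K27me3 peak of the chromosome. In bin 2, chr17:6474601-6477600 (3.0 kb) and chr17:8625601-8626800 (1.2 kb) lay 11.6 and 91.2 kb from an EZH2 peak, and in bin 7, chr17:34113601-34116800 (3.2 kb) lay 19 kb from one. In bin 15, chr17:71312801-71313400 (0.6 kb) was 345.8 kb and chr17:71946201-71949400 (3.2 kb) 3.4 kb away. Whether their sequence is repeated in the genome was not tested.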

How the data were processed

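Chromatin immunoprecipitation libraries, cut with micrococcal nuclease, were used as 2 peak lists. The processing used Bowtie 1.0.0 and deepTools on build mm9, per the submitters' processing notes. How peaks were called, and any input control or pooling, is not given in the sources used here. The lists the authors deposited hold positions only, with no score, and read depth is unknown. Every peak spanned whole steps of 200 bp, and ends were read as the last base of a step. Positions are counted from 1. The smallest gaps between peaks were 2200 bp (EZH2) and 1200 bp (H3K27me3).

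Overlaps of at least 1 bp were computed with pandas 2.3.3 and numpy 2.4.6 (Python 3.11.15); bedtools 2.31.1 gave the same counts, and the code was checked on simulated lists. Wilson intervals (95%) came from scipy 1.17.1, and figures from matplotlib 3.10.9. No test was run, because each group had 1 library. Members, bins, classes and limits were chosen with earlier results of these data known. Regions named were the dense bins, the 5 widest peaks of each kind, the 3 longest runs, the 3 fullest 100 kb windows and all H3K27me3 peaks without EZH2. The third of these windows was tied with others. Steps of 1 Mb, chains, the divisions into groups of bins, peaks of 10 kb or more, the coverage of single peaks, the compared bins of chromosomes 11 and 15 and the named distal and bin 8 sites were added after their values were seen. The planned GC and CpG contents and gene names were not obtained, because no mm9 sequence or annotation was used here.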

Additional observations from a re-analysis of the deposited data

How the results depend on the processing

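The share of chromosome 17 EZH2 peaks with H3K27me3 (13.3%) was 7.67% with 50% of each peak required in the overlap and 21.5% without the 4 dense bins, an alternative chosen after seeing the data; it stayed within its interval (13.0% to 16.3%) in the other 5. For the other autosomes (29.1%) it was 20.7% under that requirement, 31.1% with the nearest H3K27me3 peak within 5 kb and 31.1% for the wider 50% of each list, and stayed within its interval in the other 2. Chromosome 17 was below them under each of the 5 criteria. Dense bins numbered 4, and 9 (of 45) with 2 Mb bins, 8 with the wider 50%, 3 with 10 Mb bins, 5 with shifted bins and 4 with peaks joined. The density of 3.52 peaks per Mb became 2.82 without the fullest bin of every autosome, 2.81 with peaks joined within 5 kb and 2.27 for the wider 50%, and ranked first in each; with peaks joined, chromosome 19 was close at 2.77. The width ratio of 2.35 was 2.54 with peaks joined and 2.31 with 50% of each peak required. The share with a close neighbour (68.0%) was 53.7% at 10 kb and 78.7% at 50 kb, against 26.8% and 52.2% elsewhere. No paired analysis was possible because there was 1 library per group, which also allowed no replicate to be left out. Sites too weak for either list cannot be judged without depth.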
